A study of Mus musculus with 10 samples.

Results

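The MS4A family encodes small membrane proteins of immune and sensory cells, and 6 of its mouse genes are described here: Ms4a7, Ms4a4a, Ms4a4c, Ms4a6b, Ms4a6c and Ms4a6d. They were chosen as part of a gene family and not by a threshold on their values, but with earlier results of these data known. They are 6 of the 19749 genes that a single-gene probe of the array measured. Each is read by 1 probe (10466200 for Ms4a7, 10461587 for Ms4a4a, 10461594 for Ms4a4c, 10461622 for Ms4a6b, 10461614 for Ms4a6c and 10466210 for Ms4a6d). Of the 19749 genes, 10792 were tested, because at least 2 arrays lay above the median of the whole table, a log2 intensity of 5.27. All 6 members passed, but Ms4a4a did so only through the 4 arrays of mice fed for 4 weeks, and Ms4a4c only through 3 WT arrays. A difference in that direction was therefore built into the passing of these 2 genes.

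RNA was hybridised to 10 arrays, 5 of C57BL/6 (WT) mice and 5 of Trem2-/- mice, which lack the lipid-sensing microglial receptor Trem2. All mice were labelled as males of 8 to 12 weeks, the same for every feeding time. The age at sorting is thus not known for each array and may differ with feeding time. Microglia, the resident macrophages of the brain, were sorted by flow cytometry, and 2 ng of RNA was labelled per array. Cuprizone, which chelates copper, is toxic to oligodendrocytes and so removes myelin. In each genotype, 1 array came from control mice without cuprizone, 1 from mice fed 0.2% cuprizone for 4 weeks and 1 from mice fed it for 12 weeks, and for each feeding time 1 further array came from mice that then had 2 weeks of recovery on normal food. WT and Trem2-/- controls thus have 1 array each, and the cuprizone and recovery groups 2 each, 1 per feeding time. The sources used here do not give the deleted part of Trem2, the sort markers or the number of mice behind an array. No label names replicate animals or pools, so p-values measure only the spread between these samples, which may be technical. Where the 2 arrays of a group give the spread, it is the difference between 4 and 12 weeks of feeding. It then also holds feeding time and the run of sample numbers described below. The same is true of an SD of 2 arrays.

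As background, MS4A proteins cross the membrane several times and many associate with other receptors. The best known are CD20 on B cells (Ms4a1) and the β chain of the high-affinity IgE receptor on mast cells (Ms4a2). Ms4a7 is used as a marker of macrophages at the brain's borders and of macrophages that enter the brain from the blood. Ms4a4a is a surface protein of macrophages in an alternatively activated state, Ms4a6b was described as a partner of a costimulatory receptor on T cells, and Ms4a6d as a partner of the macrophage receptor Vsig4. In people, variants near MS4A4A and MS4A6A are associated with Alzheimer's disease and with the amount of soluble TREM2 in cerebrospinal fluid.

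The members lie in one stretch of chromosome 19. In the RefSeq gene table of GRCm38.p6 the order of the 9 genes from the first member to the last is Ms4a7, Ms4a4a, Ms4a4c, Ms4a4b, Ms4a6c, Gm8369, Ms4a6b, Ms4a4d and Ms4a6d. RefSeq promoter windows, 250 bases before to 50 bases after a transcript's start, matched 5 of the 6 members in 6 windows (Ms4a7 has 2); Ms4a6d has no entry. The 250 bases before the start of 5 members are shown, because these genes are neighbours and yet, as described below, took different courses over the same arrays. In Ms4a6b (chr19:11518309-11518558, plus strand) and Ms4a6c (chr19:11469118-11469367, plus strand) the capitals mark the 2 runs of 12 bases or more that both share, of 24 and 48 bases (shorter shared runs are not marked):
Ms4a6b: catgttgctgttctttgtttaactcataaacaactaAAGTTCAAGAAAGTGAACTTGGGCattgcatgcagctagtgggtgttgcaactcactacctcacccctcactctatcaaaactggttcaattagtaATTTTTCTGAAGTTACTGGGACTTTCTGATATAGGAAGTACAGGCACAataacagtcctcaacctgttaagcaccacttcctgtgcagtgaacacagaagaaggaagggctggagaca
Ms4a6c: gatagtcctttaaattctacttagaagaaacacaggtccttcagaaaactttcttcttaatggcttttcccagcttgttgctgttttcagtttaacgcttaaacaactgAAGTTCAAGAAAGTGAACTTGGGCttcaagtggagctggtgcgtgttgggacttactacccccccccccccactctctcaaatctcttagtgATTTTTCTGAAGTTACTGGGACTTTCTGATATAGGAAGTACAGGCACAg
The marked runs make up 72 of the 250 bases of each. In the other 9 pairs of printed sequences the longest shared run was 7 to 9 bases. The remaining sequences are Ms4a7 (chr19:11336147-11336396, minus strand), Ms4a4a (chr19:11375238-11375487, plus strand) and Ms4a4c (chr19:11407411-11407660, plus strand), with capitals for the single GAGGAA, the core of sites of the macrophage factor PU.1, in Ms4a4c:
Ms4a7: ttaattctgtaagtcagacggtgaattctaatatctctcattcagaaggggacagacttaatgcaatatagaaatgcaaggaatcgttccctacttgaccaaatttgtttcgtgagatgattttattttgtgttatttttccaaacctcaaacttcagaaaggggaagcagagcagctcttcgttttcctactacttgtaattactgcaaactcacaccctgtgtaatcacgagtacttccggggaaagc
Ms4a4a: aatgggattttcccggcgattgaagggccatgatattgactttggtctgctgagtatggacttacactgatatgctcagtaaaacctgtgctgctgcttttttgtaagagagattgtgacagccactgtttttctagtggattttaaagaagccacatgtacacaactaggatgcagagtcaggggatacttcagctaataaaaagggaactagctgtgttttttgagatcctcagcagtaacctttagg
Ms4a4c: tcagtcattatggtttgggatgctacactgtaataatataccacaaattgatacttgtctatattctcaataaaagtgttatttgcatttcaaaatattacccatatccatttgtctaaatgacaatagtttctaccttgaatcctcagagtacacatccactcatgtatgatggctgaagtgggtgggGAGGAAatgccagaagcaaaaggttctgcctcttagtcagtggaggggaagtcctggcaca
5 motifs were searched on both strands of the 300-base windows. GAGGAA was found in Ms4a4c at base -61 and in the first Ms4a7 window at base 43 from the start, and 28.3% of the 32851 windows of the table hold it. TGANTCA, the AP-1 motif, was found in the second Ms4a7 window at base -81, against 7.81% of windows. The core of the interferon-stimulated response element (3.44% of windows), the interferon-gamma motif TTCNNNGAA (8.3%) and the E-box CACGTG (7.15%) were not among the letters of these windows.

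The genotype label held for the targeted gene. Microglia markers were present on every array, and so were markers of some other cells. Trem2 lay between 10.66 and 10.81 (log2 intensity) on the 5 WT arrays and between 7.26 and 7.85 on the 5 Trem2-/- arrays, a log2 difference of -3.13 ± 0.10 (SE; limma adjusted p = 4.3e-07, lower in 5 of 5 conditions). All 11 measured markers of a microglia list (12 genes) lay above the table's median on all 10 arrays. Markers of mast cells and basophils (6 genes) lay below it on all 10. Of 12 border macrophage genes, 9 to 12 lay above it on each array. The arrays titled 12 weeks, 4 in number, form a second run of sample numbers, after a first run of 6 with the controls and all arrays titled 4 weeks, so feeding time and run cannot be told apart. The labels of 1 array of the second run conflict: for Trem2-/- cells on cuprizone its title says 12 weeks and its time field 4 weeks. The title was followed, and the other reading is given where it changes a call. Markers of neutrophils differed between the runs: their summed intensity (7 genes) was 4450 to 13070 in the first run and 157.7 to 311.4 in the second. In bulk samples like these, fewer cells of a type and less RNA per cell cannot be told apart.

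Levels below are log2 intensities as deposited, and differences are log2 differences ± SE from limma, with p-values adjusted over all 10792 genes and called at 0.05. Probes differ in brightness, so levels are compared between arrays for 1 gene, never between genes.

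**Figure D1:**
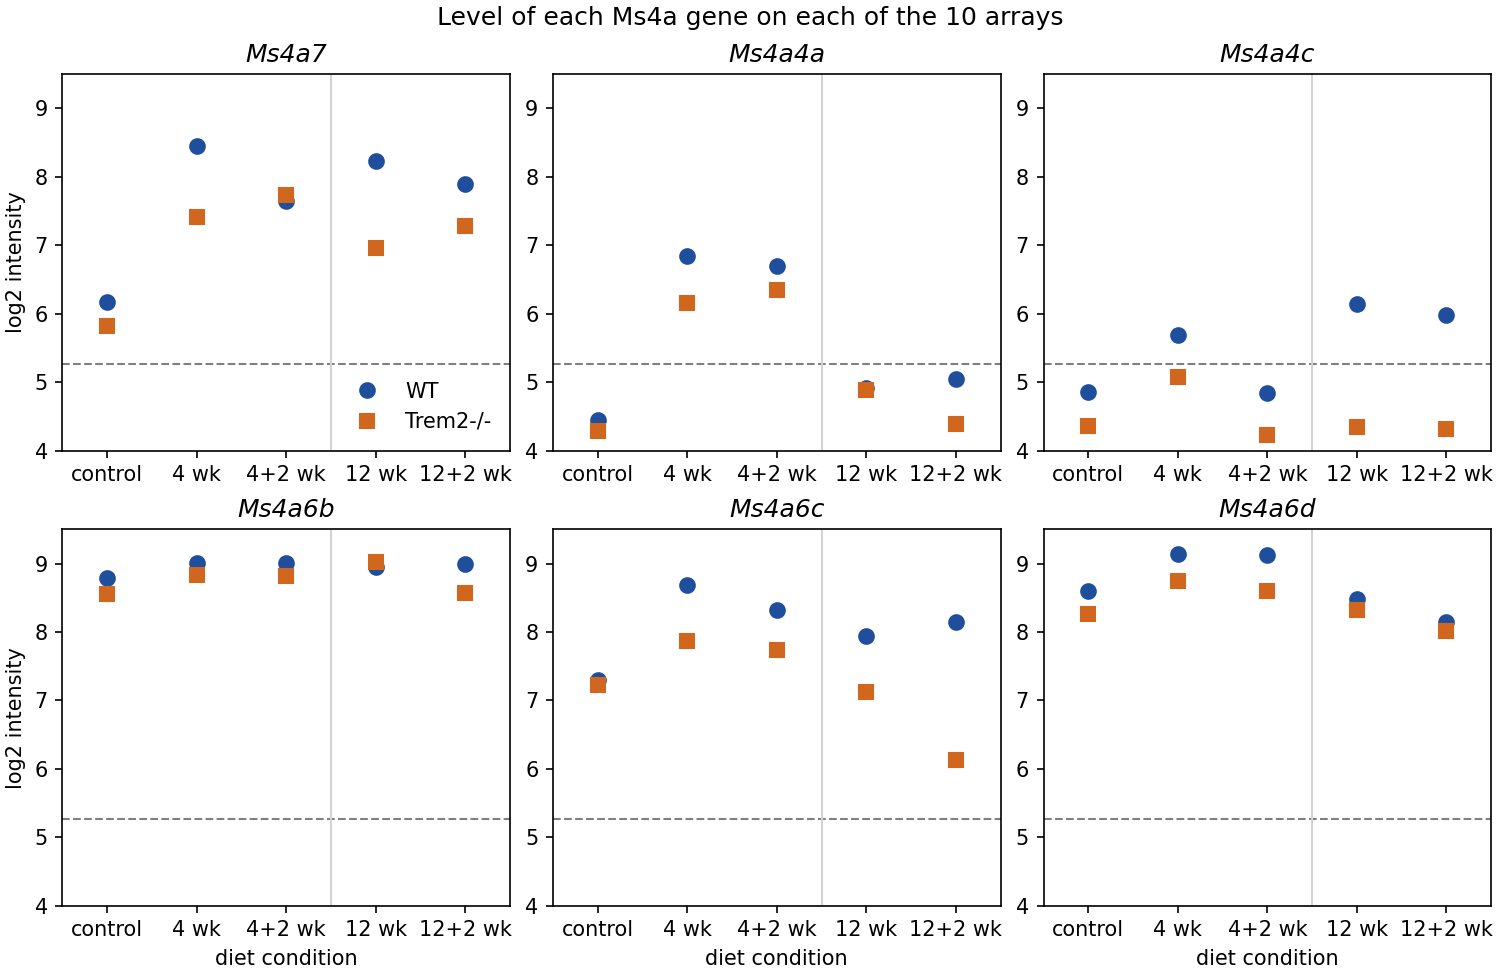
Log2 intensity (vertical axis) of the 6 Ms4a genes on each of the 10 arrays, by diet condition (horizontal axis; 4+2 and 12+2 wk are feeding followed by 2 weeks of recovery). Blue circles are WT, orange squares Trem2-/-; the dashed line is the table's median of 5.27 and the grey line separates the runs of sample numbers. Ms4a7 is lowest in both controls, Ms4a4a is above the dashed line only at 4 weeks, and Ms4a6b varies by 0.47 over all arrays.

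Ms4a7 was the only member called between control and cuprizone in the fit of group means, in WT cells; with titled duration as a block Ms4a4a was called too, in both genotypes. In WT cells its level was 6.17 in the control, 8.46 and 8.23 after 4 and 12 weeks on cuprizone, and 7.64 and 7.89 after recovery. In Trem2-/- cells it was 5.83 in the control, 7.41 and 6.96 on cuprizone, and 7.74 and 7.29 after recovery. Both controls lay below all 8 other arrays, the pair of WT cuprizone arrays lay above all others, and the recovery arrays of both genotypes overlapped. By group mean the order was WT cuprizone (8.34 ± 0.16, SD, n = 2), WT recovery (7.77 ± 0.18), Trem2-/- recovery (7.51 ± 0.32), Trem2-/- cuprizone (7.19 ± 0.32), WT control and Trem2-/- control. The recovery groups and the Trem2-/- cuprizone group are neighbours in that order whose arrays overlap.

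In WT cells on cuprizone Ms4a7 rose by 2.17 ± 0.30 over the control (4.51-fold, 95% interval 1.49 to 2.86 on the log2 scale, limma adjusted p = 0.0485, higher in 2 of 2 arrays). It was the only member called in this comparison, in which 0.148% of all tested genes were called (16, all higher). The call is at the edge of the threshold. Over 9 fits that each left out 1 array the difference ran from 2.06 to 2.29, and only the fit without the Trem2-/- control kept the call. That array enters neither this contrast nor its spread, so this fit only repeats the full one. Leaving out any other array ended the call. Titled duration as a block removes the offset between the runs and counts the controls with the 4-week arrays. With it Ms4a7 was 2.28 ± 0.25 higher (limma adjusted p = 0.00259) and Ms4a4a 2.27 ± 0.24 higher (adjusted p = 0.00259), with 0.973% of genes called. With the array of conflicting labels counted as 4 weeks in that block, Ms4a7 was the only member called (adjusted p = 0.0159, 0.343% of genes called).

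The other 5 members were also higher in mean in WT cells on cuprizone, without passing the test. Ms4a4a was higher by 1.43 ± 1.06, Ms4a4c by 1.06 ± 0.48 and Ms4a6c by 1.02 ± 0.61 (adjusted p = 0.998 for each). The median over the 6 members was 1.04, against 0.01 over all genes tested. Both WT cuprizone arrays lay above the WT control for 5 members, all but Ms4a6d, and for 34.1% of all genes. The filter favoured a rise for Ms4a4a and Ms4a4c, which passed it only through arrays on or after cuprizone. Both enter this count and the median.

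In Trem2-/- cells on cuprizone Ms4a7 was 1.36 ± 0.30 above its control (limma adjusted p = 0.999, higher in 2 of 2 arrays). limma called 0 genes in this comparison (0%), with 100 genes at an unadjusted p under 0.05, among them Ms4a7. The median over the 6 members was 0.36, against 0.01 over all genes. With titled duration as a block the difference of Ms4a7 was 1.47 ± 0.25 (adjusted p = 0.116). Both Trem2-/- cuprizone arrays lay above their control for 4 members (Ms4a7, Ms4a4a, Ms4a6b and Ms4a6d) and for 31.3% of genes. For Ms4a4a the filter favoured this direction.

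Between the genotypes on cuprizone, Ms4a7 was lower in Trem2-/- cells at both feeding times, by 1.05 after 4 weeks and by 1.27 after 12, each as a size on the log2 scale. The mean difference was -1.16 ± 0.24 (limma adjusted p = 0.162, and 0.162 to 1 over 10 fits that each left out 1 array), and with titled duration as a block the same difference had an adjusted p of 0.0181 (1.42% of genes called). Counting the array of conflicting labels as 4 weeks in that block gave -1.23 and an adjusted p of 0.0847. In the comparison without the block 0.334% of genes were called and 0 members. Ms4a7 and Ms4a4c were 2 of the 482 genes at an unadjusted limma p under 0.05. For Ms4a4c, which passed the filter only through WT arrays, this direction was favoured. The difference between the genotypes in the cuprizone response itself, control subtracted, was -0.82 ± 0.42 for Ms4a7, -0.76 ± 0.87 for Ms4a6c and -0.71 ± 0.67 for Ms4a4c (adjusted p = 1 for each; 1 gene called, 0.00927%).

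After 2 weeks of recovery Ms4a7 was still above the controls in all 4 arrays. The mean difference from control was 1.60 ± 0.30 in WT cells (limma adjusted p = 0.557) and 1.68 ± 0.30 in Trem2-/- cells (adjusted p = 1), each higher in 2 of 2 arrays. limma called 0 genes in both comparisons (0%), with 242 and 151 genes at an unadjusted p under 0.05, Ms4a7 in both. With titled duration as a block the differences were 1.71 (adjusted p = 0.045) and 1.79 (adjusted p = 0.0361), and 0.176% of genes were called in each.

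Between cuprizone and recovery the difference of Ms4a7 had opposite signs in the genotypes. WT arrays were lower after recovery, by 0.81 at 4 weeks and 0.33 at 12 weeks, and Trem2-/- arrays were higher, by 0.32 and 0.33. The mean difference was -0.57 ± 0.24 in WT cells (limma adjusted p = 0.999) and 0.33 ± 0.24 in Trem2-/- cells (adjusted p = 1). The difference between these was 0.90 ± 0.34 (unadjusted p = 0.03, adjusted p = 1). limma called 0 genes in each of the 3 comparisons (0%), with 295, 64 and 161 genes at an unadjusted p under 0.05. In recovery the genotypes differed by -0.26 ± 0.24 for Ms4a7 (adjusted p = 1), with 0.0278% of genes called.

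Gene lists of microglial state and of other cells were read on the same arrays as Ms4a7. Of 13 measured genes of a list of disease-associated microglia, such as Apoe and Gpnmb, 12 were higher in WT cells on cuprizone and 7 were called (median 2.51), and in Trem2-/- against WT cells on cuprizone 0 of 13 were higher and 8 were called lower (median -2.67). The list's median level ran from 6.66 to 10.28 over the 10 arrays, and its 2 highest arrays were the WT cuprizone arrays, as for Ms4a7. Of 11 tested genes of a border macrophage list, 10 were higher in WT cells on cuprizone and 0 were called (median 0.53). Their summed intensity (12 genes) was 2390 on the WT control, 5033 on WT cells after 4 weeks and 2137 after 12 weeks, while Ms4a7 stood 2.29 and 2.06 above the control on those arrays. In Trem2-/- cells on cuprizone against control, 10 of 11 border macrophage genes (median 1.09) and 8 of 13 disease-associated genes (median 0.18) were higher, with 0 called. Ms4a7 was 1.36 higher there. On the Trem2-/- array of 12 weeks on cuprizone the disease-associated median was 6.66, against 6.68 on its control, while Ms4a7 stood 1.13 above that control.

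**Figure D2:**
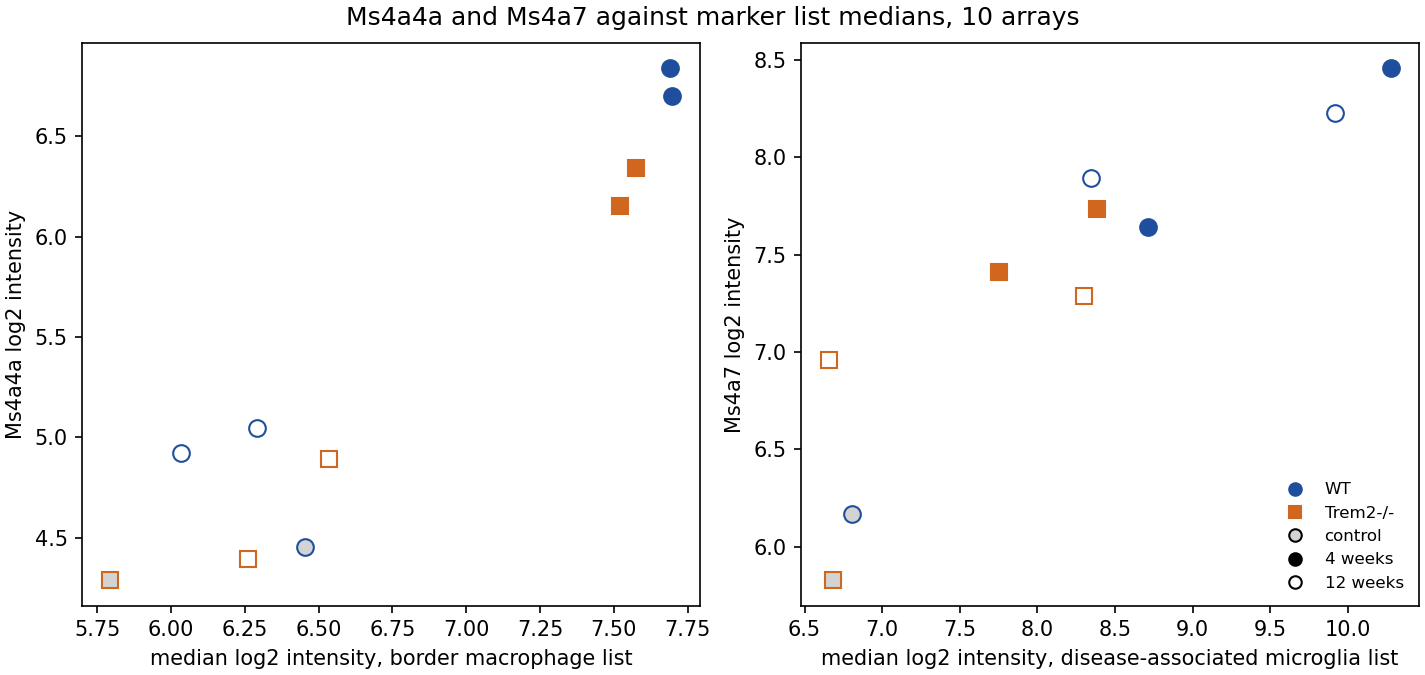
Left, log2 intensity of Ms4a4a against the median log2 intensity of the border macrophage list; right, Ms4a7 against the median of the disease-associated microglia list; each point is 1 of the 10 arrays. Blue circles are WT and orange squares Trem2-/-; grey fill marks controls, full colour 4 weeks and open symbols 12 weeks. The 4 arrays of 4 weeks stand apart on both axes at left, and both controls and the Trem2-/- array of 12 weeks on cuprizone lie lowest on the horizontal axis at right.

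Ms4a4a was higher on all 4 arrays of 4 weeks than on the controls and the 12-week arrays, and within each feeding time its cuprizone and recovery arrays overlapped. At 4 weeks its level was 6.84 and 6.70 in WT cells on cuprizone and in recovery, and 6.15 and 6.34 in Trem2-/- cells. At 12 weeks it was 4.92 and 5.05 in WT cells and 4.89 and 4.39 in Trem2-/- cells. The controls, which belong to the first run as the 4-week arrays do, read 4.45 in WT and 4.29 in Trem2-/- cells. All 4 arrays of 4 weeks thus lay above all 6 others, which were below the table's median of 5.27, where levels are near background and differences can be compressed.

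Ms4a4a was lower at 12 than at 4 weeks by 1.70 ± 0.14 (limma adjusted p = 0.00015, lower in 4 of 4 groups). The filter favoured a call in this direction, since the gene passed only through its 4-week arrays; without any filter, over 19749 genes, the adjusted p was 5.82e-05 (11.1% of genes called). No fold is given, because the 12-week levels are near background. Ms4a6c and Ms4a6d, above the median on all 10 arrays, were also called, both lower, which makes 3 members called. Of all tested genes 20.3% were called, and 12.1% of all were called lower at 12 weeks. The 12-week array lay below the 4-week array in 4 of 4 groups for these 3 members and for 24.5% of genes. The call of Ms4a4a held in 8 of 8 fits that left out 1 array. Leaving out either array of a group gives the same fit, so these 8 hold only 1 distinct fit per group. The call also held with the array of conflicting labels counted as 4 weeks (-1.84, limma adjusted p = 0.0375). That reading ended the calls of Ms4a6c (adjusted p = 0.108) and Ms4a6d (adjusted p = 0.0562), and 1.72% of genes were called under it.

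Because the groups mix both feeding times, the contrasts of Ms4a4a with the controls have wide errors. On cuprizone it was 1.43 ± 1.06 higher than control in WT and 1.24 ± 1.06 higher in Trem2-/- cells (limma adjusted p = 0.998 and 0.999), and in recovery 1.42 ± 1.06 and 1.08 ± 1.06 higher (adjusted p = 0.999 and 1). With titled duration as a block these became 2.27 ± 0.24 (adjusted p = 0.00259), 2.08 ± 0.24 (0.0332, with 0.12% of genes called), 2.27 ± 0.24 (0.0241) and 1.93 ± 0.24 (0.031). The block counts the controls with the 4-week arrays, so these values lie near those of 4 weeks. At 4 weeks Ms4a4a stood 2.39 (cuprizone) and 2.25 (recovery) above control in WT cells, and 1.87 and 2.06 in Trem2-/- cells. At 12 weeks it stood only 0.47 and 0.59 above control in WT cells, and 0.60 and 0.10 in Trem2-/- cells. The filter favoured this direction too, because the 4-week arrays through which the gene passed are in the cuprizone and recovery groups. With the array of conflicting labels counted as 4 weeks in the block, the cuprizone values were no longer called (adjusted p = 0.0957 in WT and 0.999 in Trem2-/- cells).

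The border macrophage markers took the course of Ms4a4a. Their summed intensity was 1823 to 2390 in the controls, 4530 to 5033 at 4 weeks and 1946 to 2349 at 12 weeks, and 0 of 11 tested genes were higher at 12 than at 4 weeks, with 10 called lower (median -1.15, against -0.04 over all genes). On every array 9 to 12 of the 12 genes lay above the table's median, so none of the runs was without them. Monocyte markers were lower at 12 weeks too (5 of 5 tested genes called), with sums of 379 to 389.7 in the controls, 284.6 to 651.6 at 4 weeks and 133.5 to 202.8 at 12 weeks. All 6 tested neutrophil genes were called lower. Unlike Ms4a4a, the neutrophil sums of the controls (6548 to 6973) lay within the range of the 4-week arrays. The part of such cells in the level of Ms4a4a was not tested.

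Ms4a6d, a partner of Vsig4 on macrophages, also fell between the feeding times, but from levels well above the median. At 4 weeks its level was 9.14 and 9.13 in WT cells on cuprizone and in recovery, and 8.74 and 8.60 in Trem2-/- cells. At 12 weeks it was 8.48 and 8.15 in WT and 8.32 and 8.01 in Trem2-/- cells, against controls of 8.60 and 8.26. All 4-week arrays lay above all 12-week arrays, which held for Ms4a6d and Ms4a4a among the members and for 14.1% of genes. For Ms4a4a the filter favoured this, since the gene passed only through its 4-week arrays. Both controls of Ms4a6d lay below all its 4-week arrays, that of WT just below the lowest of them. The difference of 12 from 4 weeks was -0.66 ± 0.12 for Ms4a6d (limma adjusted p = 0.00613, lower in 4 of 4 groups). It was called in 8 of 8 fits that left out 1 array, again only 1 distinct fit per group. Over the 10 arrays Ms4a6d had a Pearson correlation of 0.81 with the border macrophage list's median and 0.73 with the monocyte list's. For Ms4a4a these values were 0.95 and 0.53. The part of such cells in the level of Ms4a6d was not tested.

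**Figure D3:**
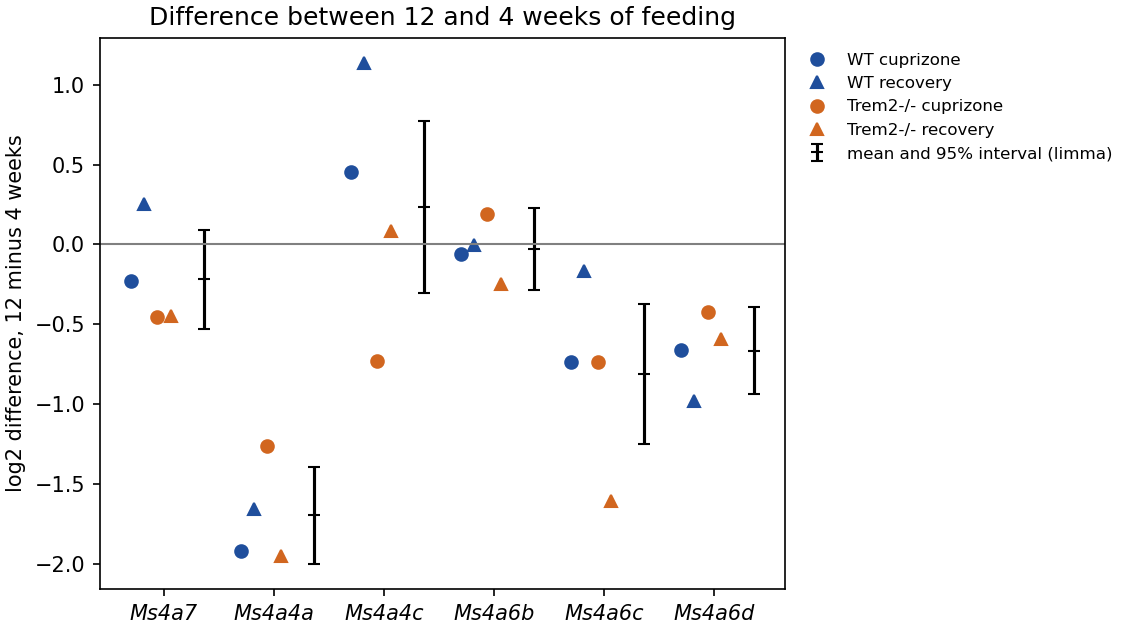
Log2 difference of the 12-week from the 4-week array (vertical axis) for each Ms4a gene, 1 symbol per group (blue WT, orange Trem2-/-; circles cuprizone, triangles recovery). Black bars show the mean and its 95% interval from limma. All 4 symbols of Ms4a4a, Ms4a6c and Ms4a6d lie below 0, with those of Ms4a4a between -1.95 and -1.26.

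Ms4a6c was lower in Trem2-/- than WT arrays on and after cuprizone, without passing the test, and lower on the 12-week than the 4-week arrays. Its level in WT cells was 7.29 in the control, 8.68 and 7.95 after 4 and 12 weeks on cuprizone, and 8.32 and 8.15 in recovery. In Trem2-/- cells it was 7.23 in the control, 7.86 and 7.13 on cuprizone, and 7.74 and 6.13 in recovery. All 4 WT arrays on or after cuprizone lay above all 5 Trem2-/- arrays, which held for 1.86% of genes and for no other member. The lowest value of the gene was that of Trem2-/- cells in recovery from 12 weeks.

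The genotype difference of Ms4a6c was -0.06 in the controls (1 array each), and was not tested by itself. It was -0.82 at both feeding times on cuprizone, -0.58 in recovery from 4 weeks and -2.02 in recovery from 12 weeks. The mean on cuprizone was -0.82 ± 0.50 and in recovery -1.30 ± 0.50 (limma adjusted p = 1 for each). From 4 to 12 weeks Ms4a6c fell by 0.81 ± 0.20 on the log2 scale (adjusted p = 0.0192), lower in 4 of 4 groups. That call held in 2 of 8 fits that left out 1 array; it was lost without either array of WT cuprizone, Trem2-/- cuprizone or Trem2-/- recovery (adjusted p from 0.0567 to 0.0642).

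Ms4a6b, which shares promoter sequence with Ms4a6c, varied least. Its level in WT cells was 8.788 in the control, 9.004 and 8.946 on cuprizone at 4 and 12 weeks, and 9.004 and 8.999 in recovery. In Trem2-/- cells it was 8.555 in the control, 8.835 and 9.024 on cuprizone, and 8.825 and 8.576 in recovery. All 10 values lay within 0.47, against a range of 2.55 for Ms4a6c, and the genotypes overlapped. Its difference of 12 from 4 weeks was -0.03 ± 0.11 (limma adjusted p = 0.87), with a 95% interval of -0.29 to 0.23, and the sign turned with quantile normalization (0.0098).

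Ms4a4c had the largest mean genotype difference of the 6 members over the 5 conditions, and it was larger at 12 weeks than at 4. In WT cells its level was 4.86 in the control, 5.70 and 6.15 on cuprizone at 4 and 12 weeks, and 4.84 and 5.98 in recovery. In Trem2-/- cells it was 4.36 in the control, 5.08 and 4.35 on cuprizone, and 4.23 and 4.32 in recovery. Only WT arrays, 3 of them, lay above the table's median, and the genotypes overlap because the Trem2-/- array of 4 weeks on cuprizone exceeded 2 WT arrays. The differences of Trem2-/- from WT were -0.50 in the controls, -0.62 and -1.80 on cuprizone at 4 and 12 weeks, and -0.61 and -1.66 in recovery.

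By group Ms4a4c differed by -1.21 ± 0.39 on cuprizone (limma adjusted p = 0.737) and by -1.14 ± 0.39 in recovery (adjusted p = 1). Within the second run the mean difference was -1.73 ± 0.19 and within the first -0.57 ± 0.10, a split chosen after the data were seen. The gene passed the filter only through WT arrays, which favours a value below 0, so nothing is drawn from its call within the second run, where 0.556% of genes were called. Between 12 and 4 weeks it differed by 0.24 ± 0.24 (adjusted p = 0.511), and without either WT recovery array this was -0.06. 8 tested genes of an interferon response list, read on the same arrays as Ms4a4c, were all lower in mean in Trem2-/- than WT cells on cuprizone with 0 called (median -0.77), whereas in recovery 6 of 8 were higher (median 0.50) while Ms4a4c was lower in both arrays.

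Over all 5 conditions, with condition as a block, each member was lower in mean in Trem2-/- cells, and 0 were called, where 0.259% of genes were (28). Ms4a4c differed by -1.04 ± 0.20 (limma adjusted p = 0.0814), Ms4a6c by -0.86 ± 0.22 (0.181), Ms4a7 by -0.63 ± 0.18 (0.221), Ms4a4a by -0.38 ± 0.12 (0.262), Ms4a6d by -0.31 ± 0.09 (0.255) and Ms4a6b by -0.19 ± 0.10 (0.54). 5 members, all but Ms4a6b, were among the 1162 of 10792 genes at an unadjusted limma p under 0.05. The median over the members was -0.51, against -0.0018 over all genes. For Ms4a4c the filter favoured a lower value in Trem2-/- cells, and the gene enters this count and the median. Without either control array Ms4a4c was called (-1.17, adjusted p = 0.0371), 1 of 103 genes (0.954%), in the direction that the filter favours for this gene; with all arrays and no filter its adjusted p was 0.0667.

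The Trem2-/- array lay below the WT array in all 5 conditions for 4 members, Ms4a4a, Ms4a4c, Ms4a6c and Ms4a6d, and for 6.1% of genes. For Ms4a4c the filter favoured this direction, here and in the counts that follow. Ms4a7 was lower in 4 conditions and 0.09 higher in recovery from 4 weeks. Ms4a6b was lower in 4 conditions and 0.08 higher after 12 weeks on cuprizone. On cuprizone 6 of 6 members were lower in Trem2-/- cells in mean, or 5 of 6 with quantile normalization, which put Ms4a6b above 0, and in recovery 6 of 6 were lower. The 11 measured microglia markers did not take that direction: 11 of 11 were higher in mean in Trem2-/- cells on cuprizone, with 0 called (median 0.32). Other lists did take it on cuprizone. Of 13 disease-associated genes 0 were higher (median -2.67), and of 8 tested interferon response genes 0 were higher (median -0.77).

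**Figure D4:**
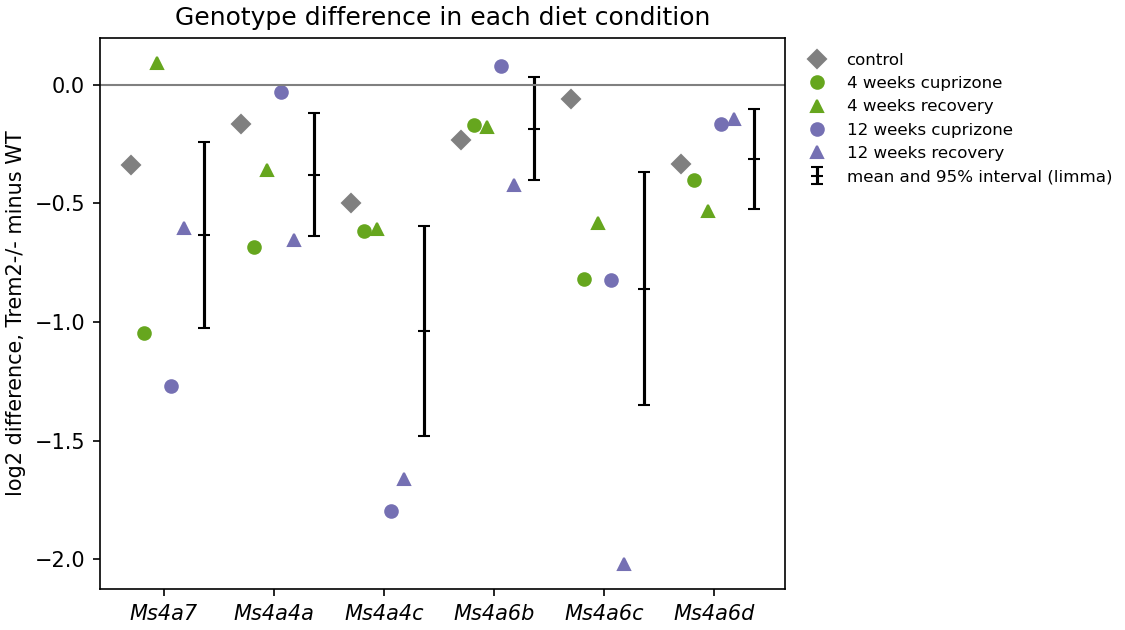
Log2 difference of Trem2-/- from WT (vertical axis) for each Ms4a gene in each of the 5 diet conditions (1 symbol per condition; grey diamond control, circles cuprizone, triangles recovery, green 4 weeks, violet 12 weeks). Black bars show the mean and its 95% interval from limma. Symbols lie below 0 except Ms4a7 in recovery from 4 weeks (0.09) and Ms4a6b after 12 weeks on cuprizone (0.08).

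The courses of the members resembled each other to different degrees. Pearson correlations of log2 intensity between pairs of members over the 10 arrays ran from 0.17, for Ms4a4a with Ms4a4c, to 0.85, for Ms4a6d with Ms4a4a. With the mean of each feeding-time set subtracted (controls with 4 weeks), they ran from 0.36, for Ms4a4a with Ms4a4c, to 0.91. The latter was the value of Ms4a7 with Ms4a4a, which was 0.64 without the subtraction. The arrays share diet, genotype and run, so these values describe only how the courses resemble each other. The least correlated pair lies side by side on the chromosome.

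The genes of the array most like each member, by the same correlation over 10 arrays, differed from member to member. For Ms4a7 they were Gpr65, a proton-sensing receptor (0.98), Myo5a, an actin motor (0.97), and Dram2, a lysosomal membrane protein (0.96). For Ms4a4a they were Lyve1, the hyaluronan receptor of border macrophages (0.98), Cp, which encodes ceruloplasmin (0.98), and Cenpa, a histone of centromeres (0.96). Lyve1 and Cp stayed first and second, and Gpr65 and Myo5a for Ms4a7, when the mean of each feeding-time set was subtracted. For Ms4a6c they were Plxnc1, a semaphorin receptor (0.97), Ece2 (0.93) and Tnfrsf1b, a receptor of TNF (0.93), and for Ms4a4c Mdfic (0.96), Cln6 (0.96) and Fam162a (0.95). For Ms4a6b they were Nfe2l2, a transcription factor of the oxidative stress response (0.93), Twsg1 (0.90) and Nck1 (0.90), and for Ms4a6d Polr1d, an RNA polymerase subunit (0.94), Nop10 (0.94) and Irf2bp2 (0.93).

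Of 16 other family genes and relatives on a list, 12 were measured, 4 passed the filter (Ms4a8a, Ms4a15, Tmem176a and Tmem176b), and Ms4a6e, Ms4a12, Ms4a14 and Ms4a18 were not analysed here. Tmem176a and Tmem176b encode MS4A-like channel proteins of myeloid cells. Tmem176b was lower at 12 than at 4 weeks by 0.49 ± 0.13 (limma adjusted p = 0.0261, lower in 4 of 4 groups), the only call among these 4 genes in the 12 comparisons. Tmem176a was 0.90 ± 0.27 higher in WT cells on cuprizone than in the control (adjusted p = 0.699) and differed by -0.71 ± 0.22 between Trem2-/- and WT cells on cuprizone (adjusted p = 0.674), with the same signs at both feeding times.

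Family genes that mark other blood cells were dim. Ms4a1 of B cells, Ms4a2 of mast cells and basophils and Ms4a4b of T cells lay below the table's median on all 10 arrays, as did Ms4a4d, Ms4a5 and Ms4a13, and their highest values were 3.83, 3.73 and 4.35 for the first 3. Of other markers of these cells, 0 of 3 tested B cell genes and 1 of 2 tested T and NK cell genes (Nkg7) were called in the feeding time comparison, the latter as lower at 12 weeks. Ms4a10 exceeded it on 1 array (5.34). Ms4a3, a gene of granulocyte and monocyte progenitors, exceeded it on 1 array, that of WT cells in recovery from 4 weeks (5.41), where the summed intensity of neutrophil markers was also highest (13070).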

How the data were processed

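The authors deposited a table of linear intensity values, 1 per probe and array, from labelled RNA of sorted microglia. The sources used here do not say how background was corrected or arrays were normalized. Of 24567 probes 21259 named 1 gene, 1274 several and 2034 were not listed. Log2 was taken of the deposited intensities without further scaling, since array medians were alike (5.23 to 5.29 on the log2 scale). A gene was read by its brightest single-gene probe and tested when it lay above the table's median (38.5 as linear intensity) on 2 or more arrays.

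Tests used R 4.3.3 with limma 3.58.1 (lmFit, then eBayes, and Benjamini-Hochberg adjustment over all tested genes). Models fitted 6 group means (4 residual degrees of freedom, 10 contrasts), genotype over 5 conditions with condition as a block (4) and 12 against 4 weeks over 8 arrays with group as a block (3). The single array of a control group was given the spread of the other groups. The number of arrays limits the precision. The fits were tested on simulated data. Every member is named or counted in each comparison. The genes most like a member are the 3 with the highest Pearson correlation. The members and the gene lists were chosen with earlier results of these data known. Alternatives were titled duration as a block, the conflicting time label, array medians subtracted, quantile normalization, the mean over a gene's probes, no filter, a filter of 5 arrays, 16 added to the intensity, each array left out and, chosen after seeing the data, genotype within each run. Promoter sequences were read with Python 3.11 from the RefSeq table of GRCm38.p6.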

Additional observations from a re-analysis of the deposited data

Results flagged for a closer look

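The recovery response of Ms4a7 went in opposite directions in the genotypes in every pair of arrays. Recovery minus cuprizone was -0.81 and -0.33 in WT cells and 0.32 and 0.33 in Trem2-/- cells (log2), so the mean differed by 0.90 between Trem2-/- and WT cells. limma's test of this difference gave an unadjusted p of 0.03 and an adjusted p of 1, and the difference ran from 0.67 to 1.13 over 10 fits that each left out 1 array.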

How the results depend on the processing

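With titled duration as a block, the number of members called was 2 in WT cuprizone against control (1 without the block), 1 in Trem2-/- cuprizone against control, 2 in WT recovery and 2 in Trem2-/- recovery against control and 1 in Trem2-/- against WT on cuprizone (0 without it in each). A filter of at least 5 arrays above the median left 0 members called in WT cuprizone against control, where Ms4a7 had a limma adjusted p of 0.0578 (0.0995% of genes called); leaving out 1 array gave 0 to 1. Over the 5 conditions 1 member, Ms4a4c, was called within the second run (0.556% of genes called), a split chosen after seeing the data and a direction that the filter favours for this gene, and leaving out 1 array gave 0 to 1. With the conflicting array counted as 4 weeks, 1 member, Ms4a4a, was called between feeding times (1.72% of genes called), against 3 (20.3%). The difference of 12 from 4 weeks changed sign for Ms4a6b with quantile normalization (0.0098) and ran from -0.1035 to 0.0426 without single arrays, and for Ms4a4c from -0.0639 to 0.5575. The cause of these shifts was not tested. Among the other counts of members called under an alternative, 189 were within 1.5 times the reported count, with 0 against 0 taken as agreement. The reported count was 0 in every comparison but WT cuprizone against control (1) and 12 against 4 weeks (3). The 189 thus say little about how stable a call is. A control left out gives no contrast with that control. The labels carry no replicate numbers, so no fit used them; the blocks were diet condition, group or titled duration. Ms4a4a at 12 weeks and Ms4a4c in Trem2-/- cells lay near background, which limits the size of their differences.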
